A study of Mus musculus with 9 samples.

Results

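The Sprouty, Spred and PEA3 ETS genes were followed across 3 mouse fibroblast lines: Spry1, Spry2, Spry4, Spred1, Spred2, Etv4, Etv5 and Phlda1. The members were every probeset (a set of short probes on the array that reads 1 transcript region) whose only annotated symbol was one of these genes, which gave 26 of the 45037 probesets tested and 8 of the 9 genes named in the rule. The 3 probesets of Etv1, the remaining PEA3 gene, carried a second symbol and were not analysed. By gene, with 1 probeset a gene, the comparison is with 18193 genes.

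The control line was unmodified Balb/c-3T3, an immortalized mouse embryo fibroblast line. One line had been stably transfected with pMvSrc, which encodes v-Src, a constitutively active viral tyrosine kinase. The other had been stably transfected with pRc/CMV-STAT3C, which encodes STAT3-C, a constitutively active mutant of the transcription factor STAT3. The 3 lines were grown in DMEM with bovine calf serum, and 3 arrays were run for each, 1 from each of 3 consecutive passages with the dishes of a passage pooled. Because each line is 1 stable line, p-values measure the spread between passages of that line and not between independently derived lines.

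Sprouty and Spred proteins are feedback inhibitors of receptor tyrosine kinase signaling: Ras and ERK signaling induces their genes, and the proteins then restrain the pathway at or above Raf. The PEA3 factors Etv1, Etv4 and Etv5 are ETS transcription factors whose genes are also induced downstream of FGF receptors and ERK, and for that reason both groups serve as readouts of the pathway. Phlda1, a pleckstrin-homology-like domain protein, is a further transcript that follows ERK output.

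The arrays' medians lay between 6.27 and 6.39 on the log2 scale, and the lower quartile of all probesets, below which a reading is close to background, lay between 5.07 and 5.16. Arrays of 1 line correlated at 0.990 to 0.995 across probesets, and arrays of different lines at 0.943 to 0.977. Neither Src probeset was called higher in v-Src cells, with log2 differences of -0.11 and -0.25, but these probes are built on the mouse gene and may not read the viral one. Stat3 probeset 1460700_at was higher in STAT3-C cells by 0.73 log2 (limma adjusted p = 0.00827), whereas probeset 1426587_a_at differed by 0.24 and was not called. Stat3 was higher in v-Src cells at both of these probesets, by 1.30 (adjusted p = 0.000504) and 1.53 (adjusted p = 0.000537). At 1426587_a_at v-Src cells exceeded STAT3-C cells by 1.29 (adjusted p = 0.00158), and at 1460700_at the difference of 0.58 was not called (adjusted p = 0.0712). The dimmer Stat3 probesets, 1424272_at and 1459961_a_at, were called in no comparison. They differed from control by 0.28 and 0.54 in v-Src cells and by 0.11 and 0.21 in STAT3-C cells. Of 10 fibroblast markers, 6 were lower in v-Src cells and 7 in STAT3-C cells, and the mean of the list was 11.03 to 11.25 in control arrays, 9.01 to 9.46 in v-Src arrays and 9.36 to 9.45 in STAT3-C arrays, with Fap below the lower quartile in every array and Lum also in the STAT3-C arrays. The means of the epithelial, endothelial and leukocyte lists lay between 5.17 and 6.55 in all arrays, with Cdh1, Pecam1, Tek, Ptprc and Itgam below the lower quartile throughout. Other markers of these lists read above the array medians. Among them, Epcam averaged 9.37 in control, 9.71 in v-Src and 9.05 in STAT3-C cells, and Csf1r 7.49, 7.81 and 7.31. Among these markers Cd68 was called higher in STAT3-C cells, by 1.14 against control (adjusted p = 0.0108), with a direct difference of -1.17, v-Src minus STAT3-C (adjusted p = 0.0132), and Epcam was 0.66 higher in the v-Src line than in the STAT3-C line (adjusted p = 0.00196). The part of these marker differences in the results for the members was not tested, and in RNA from whole cultures fewer cells of a type and less RNA per cell cannot be told apart.

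The 2 transfected lines differed most at the Spreds and the PEA3 factors. Both lines held less Spry1 than control cells, less Spry2 at the brighter of its probesets, and more Phlda1. Etv5, by far the most changed member, was 7.29-fold lower in STAT3-C cells at its brightest probeset and was not called in v-Src cells. Spred2 was called lower in STAT3-C cells at 1 of its 5 probesets and was not called in v-Src cells. Spred1 gave higher readings in v-Src cells at some probesets and lower readings in STAT3-C cells at others.

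A probeset was called when its limma adjusted p, over all probesets, was under 0.05 and its fold at least 1.5. Against control, v-Src cells had 3 of 26 member probesets called higher (11.5%) and 2 called lower (7.7%), where 8.75% and 8.10% of all probesets were called. STAT3-C cells had 1 member probeset higher (3.8%) and 10 lower (38.5%), against 9.68% and 8.58% of all probesets. Directly compared, v-Src cells had 9 member probesets higher than STAT3-C cells (34.6%) and 0 lower, against backgrounds of 4.99% and 5.33%. For the lower direction of the direct comparison, limma at an unadjusted p under 0.05 and SAM, the permutation-based test of the study, also gave 0. Only the STAT3-C decreases and the direct increases of the members were thus above the background share, and the v-Src shares were close to it. Both of these counts use the same 3 STAT3-C arrays. Spred1 alone gave 4 of the 10 decreases and 4 of the 9 increases, and probesets of 1 gene are not independent. The members were also chosen with earlier results of these data known, so the shares are descriptions and no test of an excess.

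Taken over all 26 probesets, the median log2 difference was 0.05 for v-Src against control, -0.41 for STAT3-C against control and 0.49 for v-Src against STAT3-C, while the medians of all probesets were 0.03, 0.02 and 0.00. Arrays of the 2 lines did not overlap at 10 member probesets for v-Src and control (6 higher, 4 lower), at 17 for STAT3-C and control (2 higher, 15 lower) and at 17 for the direct comparison (17 higher, 0 lower). The share of all probesets without overlap was not computed. These counts, and those given for single genes below, are therefore descriptions with no background to set them against. With the brightest probeset standing for each gene, v-Src cells had 2 of 8 genes called higher and 2 called lower, where 9.54% and 10.4% of all genes were called. In STAT3-C cells 1 gene was higher and 4 were lower, against 11.9% and 10.3% of all genes. The direct comparison gave 3 genes higher in v-Src cells and 0 lower, against 4.84% and 6.83%. The 2 comparisons with control share the control arrays, so their values are given side by side and not correlated.

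**Figure D1:**
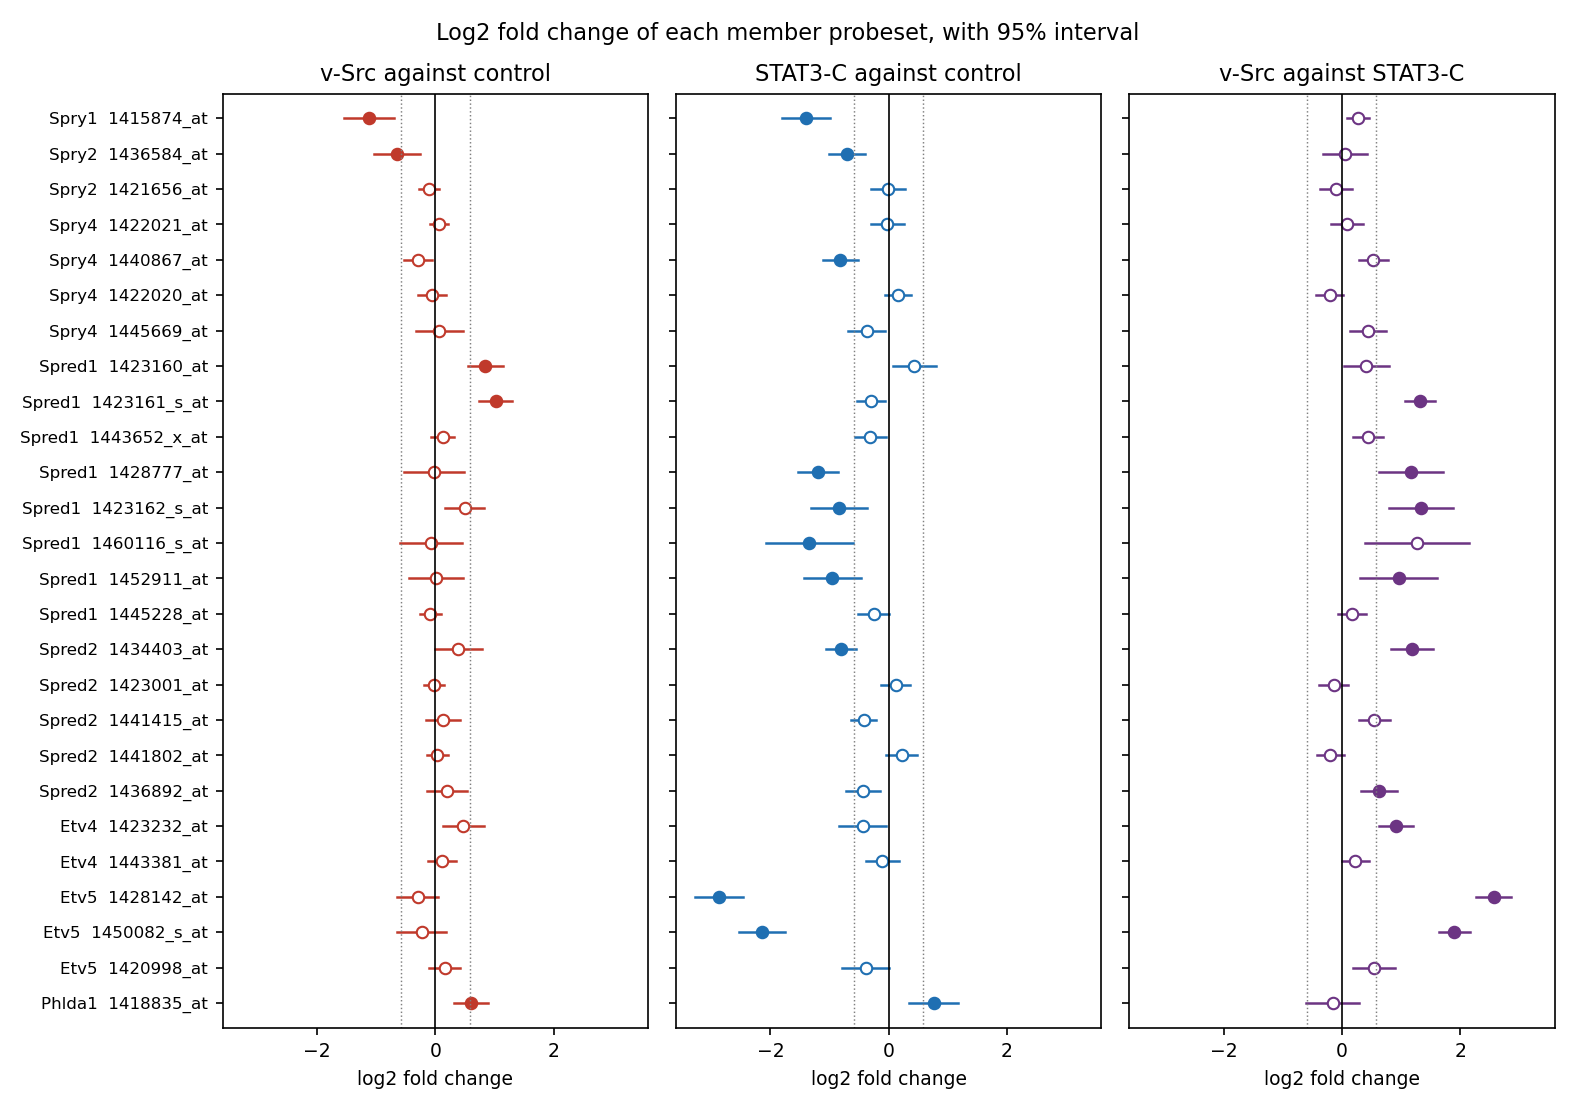
Log2 fold change (x axis) of each of the 26 member probesets (rows) in the 3 comparisons, with bars for the 95% interval of limma, filled circles for called and open circles for not called probesets, and dotted lines at a fold of 1.5. Most points lie left of 0 for STAT3-C against control (21 of 26) and right of 0 for v-Src against STAT3-C (21 of 26), and the Etv5 probesets 1428142_at and 1450082_s_at stand farthest out in both.

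Because 4 of 8 member genes were called lower in STAT3-C cells, the bases before the start sites of the members were read from RefSeq promoters on build GRCm38.p6. The table held 8 promoters of 6 member genes, each of 250 bases before to 50 after the start, and Spry4, Etv4 and Phlda1 were not read. The 250 bases before the start of the called genes are shown here, 5′ to 3′ on the strand of the gene, with any match to the ETS core CGGAAG, or to its reverse complement, in capitals.
Spry1 (chr3:37639697-37639946, plus strand): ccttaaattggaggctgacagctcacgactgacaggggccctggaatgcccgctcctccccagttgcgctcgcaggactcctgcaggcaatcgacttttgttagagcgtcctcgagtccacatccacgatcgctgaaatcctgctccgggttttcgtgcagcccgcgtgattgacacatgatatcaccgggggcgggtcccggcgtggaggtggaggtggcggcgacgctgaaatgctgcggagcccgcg
Spry2 (chr14:105896820-105897069, minus strand): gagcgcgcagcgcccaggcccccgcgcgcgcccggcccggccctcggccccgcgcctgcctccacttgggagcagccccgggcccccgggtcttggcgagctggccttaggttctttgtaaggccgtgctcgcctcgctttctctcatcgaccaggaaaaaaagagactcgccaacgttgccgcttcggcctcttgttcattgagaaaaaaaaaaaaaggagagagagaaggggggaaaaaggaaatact
Spred1 (chr2:117120821-117121070, plus strand): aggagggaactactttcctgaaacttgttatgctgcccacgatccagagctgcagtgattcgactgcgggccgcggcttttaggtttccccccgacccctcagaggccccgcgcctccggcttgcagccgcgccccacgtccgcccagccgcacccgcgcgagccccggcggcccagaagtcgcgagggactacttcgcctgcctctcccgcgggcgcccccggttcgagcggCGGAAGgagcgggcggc
Spred2 (chr11:19924192-19924441, plus strand): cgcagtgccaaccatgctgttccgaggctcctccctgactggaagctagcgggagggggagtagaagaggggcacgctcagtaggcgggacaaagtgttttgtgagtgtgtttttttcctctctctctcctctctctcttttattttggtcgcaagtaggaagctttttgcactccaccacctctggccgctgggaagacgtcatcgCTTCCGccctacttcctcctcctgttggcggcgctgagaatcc
Etv5 (chr16:22439571-22439820, minus strand): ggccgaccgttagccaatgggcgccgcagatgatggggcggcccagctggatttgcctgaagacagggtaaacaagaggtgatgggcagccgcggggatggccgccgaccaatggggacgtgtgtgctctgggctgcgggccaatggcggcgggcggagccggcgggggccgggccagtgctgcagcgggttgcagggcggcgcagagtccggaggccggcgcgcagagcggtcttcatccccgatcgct
The capitals stand 17 bases before the start in Spred1 and 43 bases before it in Spred2, and Spred1 had another match 8 bases after the start. Of the 8 member promoters, 2 held CGGAAG on either strand, where 16.9% of 32851 promoters did. No member promoter held the STAT site TTCNNNGAA (8.3% of all promoters), the longer ETS site CCGGAAGT (3.89%), which contains the core, the octamers TGAATGAA (1.3%) and TGAATGGA (1.21%) of the repressor Cic, the AP-1 site TGANTCA (7.81%) or the CRE TGACGTCA (1.79%), each searched on both strands. The STAT site searched is narrower than the study's consensus, which is TT and AA with 4 to 6 bases between them. That wider form was not searched. The STAT3 site that the study reported in the promoter of Ndn, the necdin gene, lies farther upstream than these windows reach. The result therefore covers TTCNNNGAA in these windows only, and does not show that STAT sites are absent. A match in these windows is a description and no sign of binding. For Etv5, whose other RefSeq start also held no match, and for Etv1 the remaining promoters are not shown.

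Spry1, the Sprouty with the largest decrease, read 8.97, 9.20 and 8.45 (log2) in the control arrays, 7.78, 7.68 and 7.79 in the v-Src arrays and 7.39, 7.56 and 7.48 in the STAT3-C arrays at its single probeset, 1415874_at. Every transfected array lay below every control array, and every STAT3-C array below every v-Src array. Compared with control, the gene was 2.18-fold lower in v-Src cells (log2 difference -1.12, SE 0.18, adjusted p = 0.00354) and 2.63-fold lower in STAT3-C cells (log2 difference -1.40, SE 0.18, adjusted p = 0.000715). The step between the transfected lines, 0.27 log2 (SE 0.08, 95% interval 0.09 to 0.46, adjusted p = 0.0509), was not called.

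Spry2, which like Spry1 restrains FGF signaling, was measured by a pair of probesets. At 1436584_at the log2 values were 9.0, 9.34 and 9.0 in control, 8.73, 8.15 and 8.50 in v-Src and 8.32, 8.61 and 8.29 in STAT3-C arrays. The transfected lines overlapped each other and lay wholly below control. The log2 difference was -0.65 in v-Src cells (SE 0.16, adjusted p = 0.0230, 1.57-fold) and -0.70 in STAT3-C cells (SE 0.13, adjusted p = 0.00504, 1.63-fold). The v-Src call was lost without v-Src array 5 (-0.50) or 6 (-0.67) and without control array 1 (-0.71) or 2 (-0.54). The direct difference was 0.05 (95% interval -0.32 to 0.42), which neither sets the lines apart nor shows that they are alike. The dimmer probeset, 1421656_at, differed from control by -0.10 and -0.01 and was not called.

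Spry4, a Sprouty that also acts on Ras activation, read low on these arrays. At 1422021_at, the brightest of its 4 probesets, the values ran from 5.46 to 5.85 over all 9 arrays and no comparison was called. At 1440867_at the values were 5.83, 6.17 and 5.98 in control, 5.77, 5.71 and 5.63 in v-Src and 5.37, 5.12 and 5.03 in STAT3-C arrays, so that the STAT3-C arrays lay below the rest. That probeset was 1.76-fold lower in STAT3-C cells (log2 difference -0.82, SE 0.13, adjusted p = 0.00189), and v-Src cells exceeded STAT3-C cells by 0.53 log2, under the fold required (adjusted p = 0.0125), although the fold passed without STAT3-C array 1 (0.63). Of the rest, 1422020_at was not called, and 1445669_at was below the lower quartile in all 9 arrays. With 1 of 4 probesets called and 1 of its STAT3-C readings below the lower quartile, the Spry4 decrease rests on that probeset alone.

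**Figure D2:**
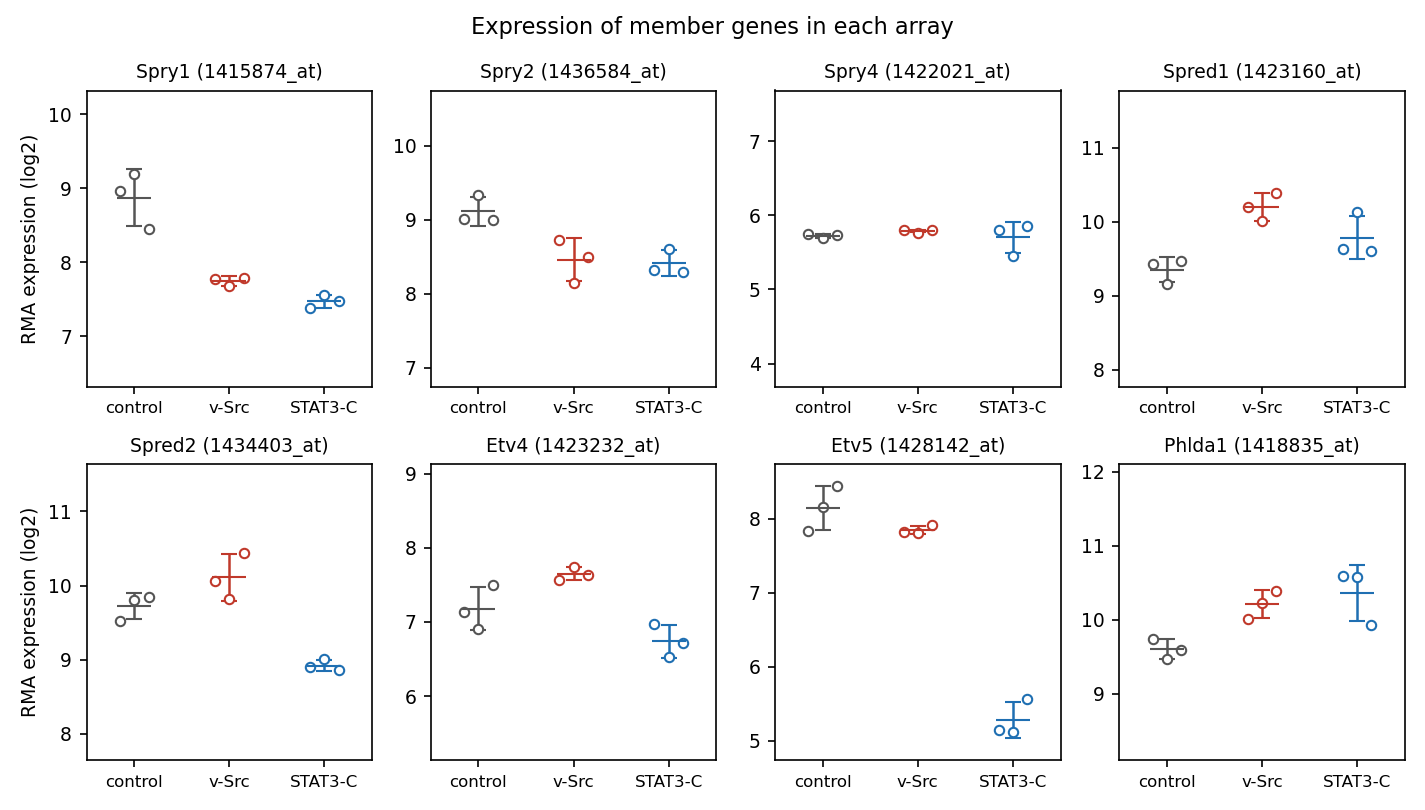
RMA expression (log2, y axis) of the probeset that stands for each of the 8 genes in the control, v-Src and STAT3-C lines (x axis), with 1 open circle for each array and bars for the mean ± SD of 3 arrays; each y axis spans the same width, and levels are not comparable between panels. The 3 STAT3-C arrays of Etv5 lie between 5.13 and 5.56, below all control and v-Src arrays, and all transfected arrays of Spry1 lie below the control arrays.

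Spred1, a membrane-associated Spred that binds neurofibromin and inhibits Ras, was the member with the most probesets, 8, and they did not give a single direction against control. Its brightest probeset, 1423160_at, read 9.43, 9.16 and 9.47 in control, 10.20, 10.01 and 10.38 in v-Src and 9.63, 10.13 and 9.60 in STAT3-C arrays, so that both transfected lines lay above control. The difference was called in v-Src cells (log2 0.85, SE 0.13, adjusted p = 0.00255, 1.80-fold) and not in STAT3-C cells (0.43, SE 0.16, adjusted p = 0.0771). At 1423161_s_at the values were 8.88, 8.77 and 9.04 in control, 9.84, 9.79 and 10.13 in v-Src and 8.52, 8.62 and 8.66 in STAT3-C arrays. Here the v-Src arrays lay above control (1.02, SE 0.12, adjusted p = 0.000830, 2.03-fold), and the STAT3-C arrays below it (-0.30, SE 0.10, adjusted p = 0.0631, not called).

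In STAT3-C cells 4 of the dimmer Spred1 probesets were called lower. Probeset 1428777_at read 7.85, 7.57 and 7.81 in control and 6.48, 6.85 and 6.32 in STAT3-C arrays, a log2 difference of -1.19 (SE 0.15, adjusted p = 0.000614, 2.29-fold), with the v-Src arrays at 7.64, 7.33 and 8.21 around the control level. The others were 1423162_s_at (-0.84, SE 0.21, adjusted p = 0.0173), 1452911_at (-0.95, SE 0.21, adjusted p = 0.0103) and 1460116_s_at (-1.34, SE 0.32, adjusted p = 0.0140). All 4 had non-overlapping arrays, but the call of 1423162_s_at was lost without control array 1 or 3 (-0.80 for each) or STAT3-C array 1 (-0.67) or 3 (-0.75), and that of 1460116_s_at without control array 1 (-1.26) or 3 (-1.34) or STAT3-C array 1 (-1.38). STAT3-C array 3 read 5.07 at 1460116_s_at, below its lower quartile. None of these 4 was called in v-Src cells, where they differed from control by -0.07 to 0.50. The 0.50 was that of 1423162_s_at, where every v-Src array lay above control (limma adjusted p = 0.035, under the fold required). It passed without v-Src array 5 (0.59). Averaging all Spred1 probesets turned the STAT3-C difference from 0.43 at the brightest one to -0.59 (adjusted p = 0.00799), and gave 0.29 for v-Src, which was not called.

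Between the transfected lines the Spred1 probesets pointed 1 way. The v-Src mean was above the STAT3-C mean at 8 of 8 probesets, by 0.16 to 1.34 log2, and the arrays did not overlap at 6. Called probesets were 1423161_s_at (1.32, SE 0.11, adjusted p = 0.000599, 2.50-fold), 1423162_s_at (1.34, SE 0.23, adjusted p = 0.00760), 1428777_at (1.17, SE 0.23, adjusted p = 0.0125) and 1452911_at (0.96, SE 0.28, adjusted p = 0.0479). The call of 1452911_at was lost without v-Src array 1 (1.02) or 6 (0.73) or STAT3-C array 1 (1.06), 2 (1.13) or 3 (0.69) and after either renormalization (0.93 and 0.94), and that of 1428777_at without STAT3-C array 1 (1.14). Probesets of 1 gene share its RNA and are not replicates, and which transcript ends they read was not analysed here. One of them, 1445228_at, was below the lower quartile in all 9 arrays.

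**Figure D3:**
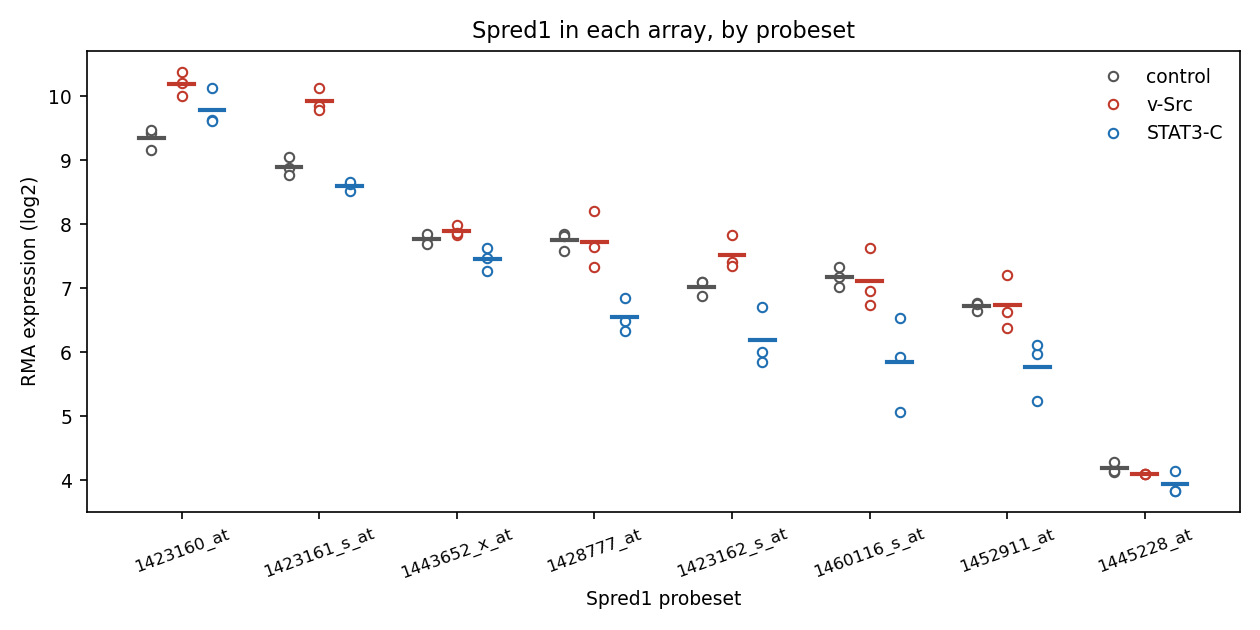
RMA expression (log2, y axis) at each Spred1 probeset (x axis) in control (grey), v-Src (red) and STAT3-C (blue) arrays, with 1 open circle for each array and a bar for the mean of 3. The v-Src mean lies above the STAT3-C mean at all 8 probesets, whereas the control mean is the lowest at 1423160_at and close to the v-Src mean at 1428777_at, 1460116_s_at and 1452911_at.

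Spred2, the second inhibitor of this kind, read 9.53, 9.80 and 9.84 in control, 10.07, 9.82 and 10.44 in v-Src and 8.89, 9.01 and 8.85 in STAT3-C arrays at 1434403_at. The STAT3-C arrays lay below all others, and v-Src overlapped control. The gene was 1.75-fold lower in STAT3-C than in control cells (log2 difference -0.81, SE 0.11, adjusted p = 0.00104) and 2.28-fold higher in v-Src cells when the transfected lines were compared (1.19, SE 0.15, adjusted p = 0.00247), and the v-Src difference from control was 0.39 (SE 0.17, adjusted p = 0.134). At 1436892_at the direct difference was also called (0.63, SE 0.13, adjusted p = 0.0146), but not without v-Src array 6 (0.51) or STAT3-C array 1 (0.58). At 1441415_at it was 0.55 (adjusted p = 0.0141), under the fold required. The remaining probesets, 1423001_at and 1441802_at, differed by -0.14 and -0.19 in the direct comparison and were not called. With all 5 probesets averaged, Spred2 passed in no comparison, at -0.26 for STAT3-C against control and 0.41 directly.

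For Etv4, the ETS factor first named PEA3, the means of the transfected lines lay on opposite sides of control. Probeset 1423232_at read 7.14, 6.91 and 7.50 in control, 7.57, 7.75 and 7.64 in v-Src and 6.97, 6.53 and 6.72 in STAT3-C arrays. The v-Src arrays lay above control and the STAT3-C arrays overlapped it. Neither difference from control was called, at 0.47 (SE 0.15, adjusted p = 0.0529) and -0.44 (SE 0.17, adjusted p = 0.0899), although the v-Src difference passed without control array 3 (0.63). The direct difference was 1.88-fold (log2 0.91, SE 0.12, adjusted p = 0.00282). Its other probeset, 1443381_at, was below the lower quartile in all 9 arrays, and with both averaged the direct difference was 0.57, under the fold required.

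Etv5 showed the largest change of any member. At 1428142_at the values were 7.83, 8.16 and 8.44 in control, 7.82, 7.81 and 7.91 in v-Src and 5.15, 5.13 and 5.56 in STAT3-C arrays. The v-Src arrays overlapped the lower control arrays, and the STAT3-C arrays stood apart, next to the arrays' lower quartile, so that the size of the decrease is limited by the background of the array. STAT3-C cells differed from control by -2.87 log2 (SE 0.18, 95% interval -3.27 to -2.46, adjusted p = 2.1e-05), and v-Src cells from STAT3-C cells by 2.57 (SE 0.13, adjusted p = 0.000119, 5.93-fold). The v-Src difference from control was -0.30 (95% interval -0.65 to 0.05, adjusted p = 0.181). Probeset 1450082_s_at read 6.97, 7.29 and 7.66 in control, 7.12, 6.89 and 7.21 in v-Src and 5.08, 5.12 and 5.32 in STAT3-C arrays, a difference of -2.14 for STAT3-C (SE 0.17, adjusted p = 6.7e-05, 4.39-fold) and of 1.90 directly (SE 0.11, adjusted p = 0.000214). At 1420998_at the differences were smaller, -0.39 for STAT3-C (adjusted p = 0.138) and 0.55 directly (adjusted p = 0.0445, under the fold required).

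Phlda1, a protein that promotes or restrains cell death depending on the cell, was the only member called higher in both transfected lines. At 1418835_at the values were 9.74, 9.47 and 9.60 in control, 10.01, 10.22 and 10.39 in v-Src and 10.59, 10.57 and 9.93 in STAT3-C arrays. Every transfected array lay above every control array, and the transfected lines overlapped. The log2 difference was 0.61 in v-Src cells (SE 0.12, adjusted p = 0.00893, 1.52-fold) and 0.76 in STAT3-C cells (SE 0.18, adjusted p = 0.0147, 1.69-fold), and -0.15 directly (95% interval -0.60 to 0.29). Both calls sit close to the thresholds. That for v-Src was lost without v-Src array 6 (0.51) or control array 2 (0.54) and when arrays were centred on their medians (0.54), and that for STAT3-C without control array 3 (0.76) or STAT3-C array 1 (0.65) or 2 (0.66).

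At the brightest probeset of each gene, the order of the lines thus differed from gene to gene. For Etv5 and Spred2 it was control and v-Src, not called apart, above STAT3-C, and for Spry1 and Spry2 control above the transfected lines, not called apart. For Phlda1 the transfected lines, again not called apart, stood above control. For Etv4 the extremes, v-Src and STAT3-C, were called apart, and control was called apart from neither. For Spred1 the place of control depended on the probeset, and for Spry4 the brightest probeset gave no order. Exact permutation of 3 against 3 arrays cannot give a two-sided p below 0.1, so each of these statements rests on limma's fit across all probesets. Dimmer probesets of Spred2, Spry2 and Etv5 did not all repeat these orders. At 1423001_at and 1441802_at of Spred2, called in no comparison, the STAT3-C mean was the highest of the lines. Spry2 1421656_at was called in no comparison, and Etv5 1420998_at was not called against control.

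Genes with the most similar pattern were found by the root mean square difference over the 9 arrays, with each probeset set to its control mean. For Etv5 they were Col6a3, a collagen VI chain (0.37 log2 units), Dcn, the matrix proteoglycan decorin (0.41), and Igf2r, the mannose 6-phosphate receptor (0.46). Their own STAT3-C differences from control were -2.74, -2.24 and -2.61. Spred2 was most like Tex2 (0.13), Sema3a and Grina, Spry1 most like Repin1 (0.15), Slc38a7 and Akap7, and Spry2 most like Adck2 (0.12), Numbl and Cdk10. Spred1 at its brightest probeset was most like Fmnl2 (0.11), Tmem131l and Lhx6, and Phlda1 most like Rnf13 (0.12), Slco1a5 and Lrif1. The distances for Etv5 were larger than those of these 5 members. Etv4 and Spry4, whose representative probesets were called in neither comparison with control, were not searched.

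Relatives of the members outside the rule (Spry3, Spred3, Il17rd, Phlda2, Phlda3 and 14 other ETS genes, 19 of 19 measured) were called in both directions. The v-Src line had 2 higher and 5 lower, the STAT3-C line 1 and 2, and the direct comparison 1 and 1, with medians of -0.12, -0.05 and -0.11. Among all genes, 9.54% and 10.4% were called higher and lower for v-Src, 11.9% and 10.3% for STAT3-C, and 4.84% and 6.83% directly. Apart from the v-Src decreases, the counts of the relatives lay near or below those shares. Spred3, a Spred without a functional c-Kit-binding domain, was 1.40 log2 higher in v-Src cells (SE 0.20, adjusted p = 0.00219), -0.35 in STAT3-C cells and not called there, and 1.75 higher in the direct comparison (SE 0.25, adjusted p = 0.00358). Ets1 was higher in both lines, by 0.65 and 1.02. The ETS repressor Etv6 was lower in both, by -0.67 and -0.85, as was Phlda3, an Akt inhibitor, by -0.62 and -0.80. Elf1, Elk4 and Gabpa were lower in v-Src cells (-1.16, -0.69 and -0.65). Leaving out 1 array moved the v-Src counts to between 1 and 3 higher (1 without v-Src array 6) and between 3 and 5 lower (3 without v-Src array 1 or control array 3), and the STAT3-C count of higher genes to 3 without STAT3-C array 3.

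The other ERK-induced transcripts were taken as a list of 32 feedback and output genes, of which 29 were measured. They were mostly called higher or not called. The list is not specific to ERK, because the study names Ccnd1 and Mcl1, which stand in it, as known STAT3-regulated genes. Both were called higher than control in both transfected lines. Whether the increases in this list follow ERK or STAT3 was not tested. The v-Src line had 17 higher and 1 lower, and the STAT3-C line 11 higher and 1 lower, with medians of 0.86 and 0.47 where the medians of all genes were 0.02 and 0.04. The shares of all genes called higher and lower were 9.54% and 10.4% for v-Src, 11.9% and 10.3% for STAT3-C, and 4.84% and 6.83% directly. Errfi1, a feedback inhibitor of the EGF receptor, was higher by 3.13 log2 (SE 0.44) in v-Src and 2.24 (SE 0.30) in STAT3-C cells, Bhlhe40, a transcriptional repressor, by 2.70 (SE 0.11) and 1.14 (SE 0.20), and Plaur, the urokinase receptor, by 2.51 (SE 0.10) and 1.38 (SE 0.16). Dusp4, a nuclear MAP kinase phosphatase, was higher by 2.86 (SE 0.11) and 0.88 (SE 0.17). Directly, 9 of the 29 were higher in v-Src cells and 0 lower (by SAM 12 and 0, and at an unadjusted limma p under 0.05, 18 and 2), with a median of 0.44.

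Dusp6, the cytoplasmic ERK phosphatase, was the 1 gene of that list called lower in STAT3-C cells. It was -1.80 log2 in STAT3-C cells (SE 0.21, adjusted p = 0.000448) and 0.53 in v-Src cells (SE 0.21, adjusted p = 0.102, not called). The direct difference of Dusp6 was 2.33 (SE 0.21, adjusted p = 0.000718). Srf, the serum response factor, was the 1 gene lower in v-Src cells (-0.75).

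**Figure D4:**
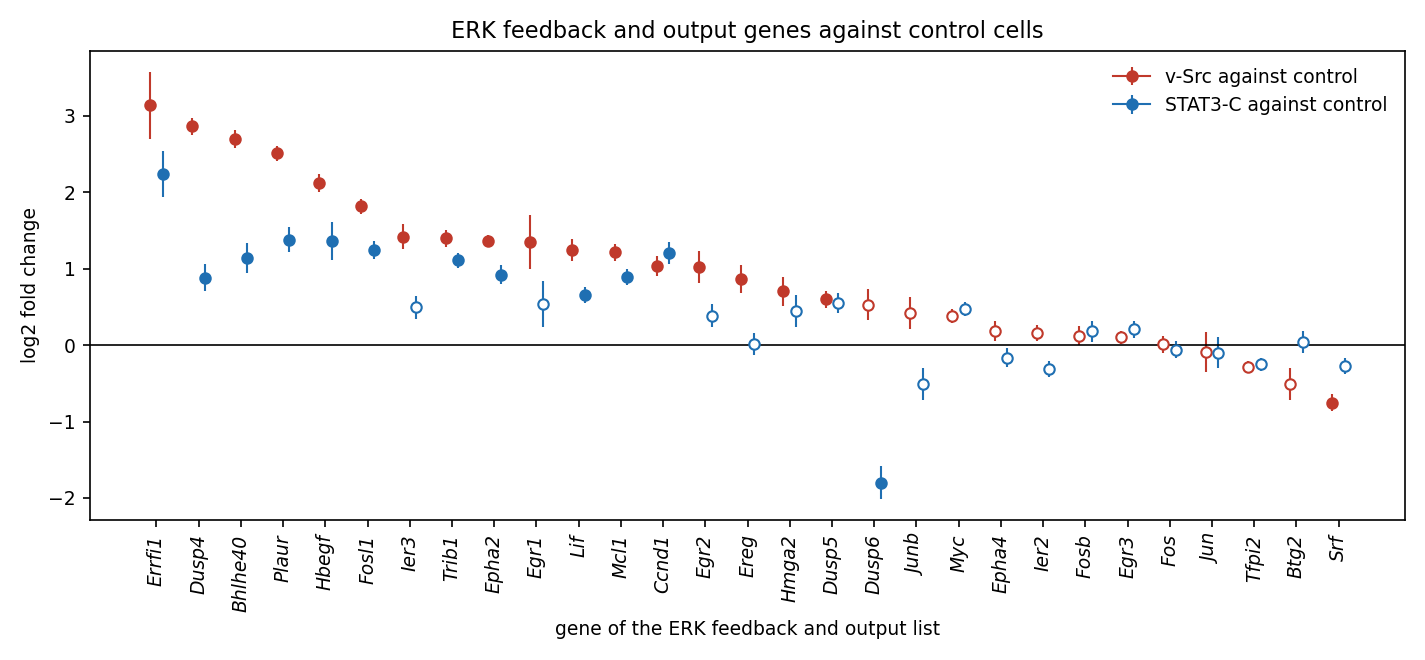
Log2 fold change (y axis) of the 29 measured ERK feedback and output genes (x axis, ordered by the v-Src value) in v-Src (red) and STAT3-C (blue) cells against control, with bars for the standard error of limma and filled circles for called and open circles for not called genes. Errfi1, Bhlhe40, Plaur and Dusp4 are filled above 0 in both lines, and Dusp6 is the only STAT3-C point filled below 0, at -1.80.

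Upstream of ERK, 28 of 34 genes from receptors to kinases were measured, and the largest difference in each comparison was that of a receptor. Calls were 3 higher and 7 lower for v-Src, 4 and 6 for STAT3-C, and 1 and 3 directly, with medians of 0.15, 0.08 and 0.04. Shares of all genes called higher and lower were 9.54% and 10.4% for v-Src, 11.9% and 10.3% for STAT3-C, and 4.84% and 6.83% directly. The counts of higher genes in this list lay near those shares. Fgfr1, the FGF receptor of fibroblasts, was -1.08 log2 in v-Src cells (SE 0.17, adjusted p = 0.00361) and -2.31 in STAT3-C cells (SE 0.26, adjusted p = 0.000368), with a direct difference of 1.22 in favor of v-Src cells (SE 0.28, adjusted p = 0.0204). The PDGF receptors were lower in both lines, Pdgfrb by -5.06 and -1.93 and Pdgfra by -2.08 and -1.34; both also stand in the fibroblast marker list. Nras was higher in both (1.28 and 1.06), as was the exchange factor Sos2 (0.80 and 1.43). The v-Src count of lower genes was 4 without control array 1, and the direct count of higher genes ranged from 0 without v-Src array 6 to 3 without v-Src array 1.

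Of 22 genes for proteins that act on Sprouty, Spred or PEA3 proteins, 21 were measured, with 3 higher and 6 lower in v-Src cells, 2 and 3 in STAT3-C cells and 3 and 2 directly (medians -0.21, -0.20 and 0.00). For comparison, 9.54% and 10.4% of all genes were called for v-Src, 11.9% and 10.3% for STAT3-C, and 4.84% and 6.83% directly. Egln3, a prolyl hydroxylase, was higher by 3.54 log2 (SE 0.19) and 2.47 (SE 0.24), and Cblb, a ubiquitin ligase of the Cbl family, by 0.83 and 0.66. Tesk1, a kinase that binds Sprouty and Spred proteins, was lower in both lines (-1.39, SE 0.08, and -1.64, SE 0.09), as was Cav1, the caveolin that binds Sproutys (-1.11 and -0.95). Siah2, a ubiquitin ligase that targets Sprouty2, was higher in v-Src cells (0.94, SE 0.10). Cop1, a ubiquitin ligase for PEA3 proteins, was -1.16 in STAT3-C cells (SE 0.10, adjusted p = 0.000106) and -0.56 in v-Src cells (SE 0.09, adjusted p = 0.00361, under the fold required), a direct difference of 0.60 (adjusted p = 0.00580). Its partner Det1 was -0.49 in each line against control, under the fold required, and was not called directly. Cic, the repressor of PEA3 genes, exceeded its STAT3-C level by 0.75 in v-Src cells (SE 0.08, adjusted p = 0.00110). Against control it was -0.49 in STAT3-C cells (adjusted p = 0.00355) and 0.27 in v-Src cells (adjusted p = 0.0319), both under the fold required. Atxn1 and Atxn1l, which partner with Cic, were lower in v-Src cells (-0.92 and -0.86) and lower than in STAT3-C cells (-1.08 and -0.67). The STAT3-C count of higher genes was 1 without control array 3 or STAT3-C array 1 or 2, and the direct count of lower genes was 1 without STAT3-C array 1. These are transcript levels, and protein abundance or activity was not measured by the arrays.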

How the data were processed

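Total RNA from 9 cultures was hybridized to 1 Affymetrix mouse array each. The deposited values are on the log2 scale and were made by the authors from the scanned arrays with Robust Multichip Average (RMA), which corrects background, applies quantile normalization and combines the probes of a probeset. Per the methods, the control arrays were normalized once with each transfected line. The deposited table holds 1 column an array and does not name the run. RMA gives exactly equal values to some arrays combined together, and v-Src and STAT3-C arrays shared 1061 to 1533 such probesets a pair, as did pairs within a line (925 to 1910). Arrays give no library depth, and their number limits the precision.

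The 64 array control probesets were left out of 45101. Symbols came from the platform annotation and were updated by gene number where possible. Of 45037 probesets, 34945 had 1 symbol, 932 several and 9160 none, and list genes on probesets with several symbols alone were not analysed. Each comparison was fitted to its 6 arrays with limma 3.58.1 in R 4.3.3 (lmFit and eBayes), with Benjamini-Hochberg adjustment over all probesets, and the steps were tested on simulated data. Calls needed a fold of at least 1.5 besides an adjusted p under 0.05. SAM was computed from the 20 groupings of 6 arrays at q under 5%. The brightest probeset over the 9 arrays stood for a gene. Every member was named, with the 3 genes nearest in pattern for the 6 members whose representative probeset was called against control, and, for each line, up to 4 members of each of 4 related lists that differed most, and further called list genes were named after their values were seen. The members and lists were chosen with earlier results of these data known. Alternatives covered all 9 arrays in 1 fit, normalization, a filter on low values, the thresholds, SAM, the variance model, the replicate number as a block, the mean over probesets of a gene, and leaving out each array. STAT3-C and control arrays share the numbers 1, 2 and 3, but deviations of same-numbered arrays correlated at -0.09, 0.06 and 0.04. Figures used python 3.11.15 and matplotlib 3.10.9.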

Additional observations from a re-analysis of the deposited data

Results flagged for a closer look

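The v-Src and STAT3-C lines differed at 9 member probesets, where the direct comparison of the lines with limma passed an adjusted p of 0.05 and a fold of 1.5. These were 34.6% of the member probesets, where 4.99% of all probesets were called higher in v-Src cells. With 1 stable line for each construct, an effect of the construct and a difference between the lines cannot be told apart. On the log2 scale, v-Src minus STAT3-C, the differences at Etv5 were 2.57 (1428142_at) and 1.90 (1450082_s_at). At Spred1 they were 1.34 (1423162_s_at), 1.32 (1423161_s_at), 1.17 (1428777_at) and 0.96 (1452911_at). Spred2 gave 1.19 (1434403_at) and 0.63 (1436892_at), and Etv4 gave 0.91 (1423232_at). In all 9, each v-Src array was above each STAT3-C array. The 9 were picked by a test of these same arrays, so the lack of overlap is a description and no further support.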

How the results depend on the processing

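Of the 25 member calls, 17 held in each setting tried on single probesets other than a changed threshold, where the probeset was kept. The 8 that did not are named beside their values in the report. The filter on low values left out Spry4 1440867_at, among the 17, and Spred2 1436892_at, among the 8, so these calls were not tried under it. No member probeset changed sign with a call. Averaging the probesets of a gene reversed the STAT3-C difference of Spred1 to -0.59, lowered below the fold Spry2 (-0.38 for v-Src, -0.36 for STAT3-C), Spred1 for v-Src (0.29), Spred2 (-0.26 for STAT3-C, 0.41 directly) and Etv4 directly (0.57), and brought Spred1 directly past it (0.88). A fold of at least 2 left member probesets at 1 higher and 1 lower for v-Src and 0 higher and 5 lower for STAT3-C, and all probesets at 1841 higher and 1669 lower (v-Src), 1955 and 1758 (STAT3-C) and 725 and 771 (direct); with no fold these were 6771 and 6011, 7302 and 6049, and 4578 and 4546. An adjusted p under 0.01 left 1 member lower for v-Src, 0 higher for STAT3-C and 1466 probesets higher directly. Without single arrays, member probesets ranged over 2 to 4 higher and 1 to 2 lower for v-Src, 0 to 1 higher and 8 to 10 lower for STAT3-C, and 7 to 10 higher and 0 lower directly; all probesets ranged over 3537 to 3893 and 3237 to 3878, 3874 to 4458 and 3496 to 4197, and 1769 to 2358 and 1800 to 2481. With the replicate number as a block, STAT3-C against control gave 1 member higher and 10 lower, and 4447 and 3964 of all probesets; the relatives went from 1 to 2 higher. The numbers did not pair these arrays, and v-Src shares a single number with control, so no block was fitted there. Without an array its line has 2, and signal near background limits Spry4, 1445228_at and 1460116_s_at of Spred1, 1443381_at of Etv4 and the STAT3-C values of Etv5.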
